A study of Danio rerio with 10 samples.

Results

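The genes described here are 46 zebrafish genes of DNA replication and mitosis, measured by RNA-seq in sorted pectoral fin cells of *prdm1a-/-* and WT embryos. They were chosen by name, with earlier results of these data known. Of them, 23 act in S phase or at its entry, while the other 23 act in G2 and M phase. The names matched 48 rows of the 32520 genes in the count table, because *rrm2* and *ube2c* each stand under 2 identifiers. Counts and sums below include the *rrm2* rows, whose identity was not settled, and a *ube2c* row that the Ensembl table names *DNTTIP1*. All 48 rows had at least 10 counts summed over the 4 libraries, and all 48 were among the 20007 genes tested. The S phase genes made up 24 rows and the G2 and M phase genes the other 24. Counts of a member in a library lay between 63 and 32689.

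The study asked what *prdm1a*, which encodes a transcription factor with a PR domain and zinc fingers, does in the developing pectoral fin, the fish counterpart of the tetrapod forelimb. EGFP-positive cells had been sorted from dissociated embryos at 48 hpf (hours post fertilization). The mutant embryos, *prdm1a-/-*, were homozygous for the *prdm1am805* allele, and the control embryos were labelled WT. Both genotypes carried the transgene *Tg(Mmu:Prx1-EGFP)*, in which a mouse Prx1 enhancer drives EGFP in fin mesenchyme and also in the pharyngeal arches and the dorsal head, so heads were removed before sorting. There were 2 libraries per genotype, each from a pool of embryos, and both genotypes carried replicate numbers 1 and 2. The *prdm1a-/-* embryos had been picked by their pigment phenotype. Since each library is one pool, p-values speak for these pools only. Where replicate number was fitted, they measure the spread left after the difference between the numbers is removed. With 1 residual degree of freedom per gene, that spread was estimated in large part from information shared over all genes. The full spread between pools of one genotype enters only where replicate number was left out.

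Before S phase, the proteins Cdc6 and Cdt1 load the ring of Mcm proteins onto replication origins. Cyclin D and cyclin E with their kinases lead cells into S phase. The Mcm ring then unwinds DNA together with Cdc45 and the GINS complex, and polymerases copy the strands with the help of the clamp PCNA and the single-strand binding protein RPA. In G2 and M phase, cyclin A and cyclin B activate Cdk1, the spindle and kinetochores form, the spindle checkpoint holds anaphase back until every kinetochore is attached, and the anaphase-promoting complex then ends mitosis. Transcripts of the first set usually peak around the G1/S boundary and those of the second in G2 and M, so in a bulk library their levels depend on how many cells are in each phase as well as on the level per cell. In these bulk pools fewer cells of a type and less RNA per cell cannot be told apart.

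The libraries held 20303621 to 26798799 counts. *prdm1a* itself, whose mutant transcript is still counted, had 2505 and 7847 counts in *prdm1a-/-* replicates 1 and 2, against 1147 and 5222 counts in WT replicates 1 and 2, so its level does not check the labels. The libraries stood apart first by replicate number: the first principal component, with 68.4% of the variance, separated the numbers, and the second, with 19.9%, separated the genotypes. The labels do not say what a replicate number marks. Markers of fin mesenchyme, the labelled tissue, were detected for 9 of the 10 names listed, with summed levels of 1077 and 790 CPM in *prdm1a-/-* replicates 1 and 2 and 1154 and 1080 CPM in WT replicates 1 and 2, and 1 of them was called lower, against 0.62% of all genes tested. CPM are counts scaled to the library's total on tested genes after TMM normalization. Markers of other cell types were present too, and none was at 0 in all libraries. The 10 cartilage markers summed to 26034 and 1674 CPM in *prdm1a-/-* replicates 1 and 2, against 32605 and 2670 CPM in WT replicates 1 and 2. Of these, 10 of 10 had a negative fitted log2 fold change, against 49.3% of all genes tested, and 0 were called, against 1.01%. Lower in both pairs were 6 of 10, against 29.7%. The 7 markers of neural crest and pigment cells summed to 44.3 and 33.2 CPM in *prdm1a-/-* pools, against 105 and 73.0 CPM in WT pools. Of these, 7 of 7 were lower in both pairs, against 29.7% of all genes tested, and 3 were called lower, against 0.62%. The 6 red blood cell markers summed to 127 and 54.4 CPM in *prdm1a-/-* pools, against 199 and 116 CPM in WT pools. Of these, 1 was called lower, against 0.62% of all genes tested. The 9 skeletal muscle markers summed to 11420 and 2859 CPM in *prdm1a-/-* pools, against 12378 and 1569 CPM in WT pools. Of these, 8 had a positive and 1 a negative fitted log2 fold change (median 0.47), against 50.7% and 49.3% of all genes tested. The pairs differed, with 3 higher and 6 lower in replicate 1 (median -0.15) and 8 higher and 1 lower in replicate 2 (median 0.92). Called higher were 0, against 0.395%, and called lower 1, against 0.62%. Of the remaining lists, 2 of 8 markers of neurons and brain were called lower, against 0.62% of all genes tested. Among markers of epidermis, macrophages and neutrophils, endothelium and notochord, 0 were called, against 1.01%. Several of these sums differ with the genotype, with the replicate number or with both, and their part in the results was not tested.

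The S phase genes and the G2 and M phase genes differed in direction between the genotypes. Of the 24 S phase rows, 20 had a higher fitted level in *prdm1a-/-* cells and 4 a lower one, with a median log2 fold change of 0.16 (*prdm1a-/-* over WT). Of the 24 G2 and M phase rows, 22 were lower in *prdm1a-/-* cells and 2 higher, with a median of -0.38. Among all genes tested, 50.7% were higher and 49.3% lower, with a median of 0.01. With other scalings, filters and tools that also compare within replicate number, 18 to 20 S phase rows stayed on the higher side and 22 to 23 G2 and M phase rows on the lower side.

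Few genes passed the test, among the members as among all genes tested. In edgeR's quasi-likelihood test, fitted within replicate number (a block) and adjusted by Benjamini-Hochberg, 1 of the 48 rows was called at an adjusted p under 0.05, against 1.01% of all genes tested. The called row was an *rrm2* row that rose, so 1 S phase row was called higher, against 0.395% of all genes, and 0 rows of either phase were called lower, against 0.62%. Other fits within replicate number called 5 of the 48 without a filter on low counts (2.43% of the genes in that fit), 3 with limma-voom (2.17%) and 0 with library totals in place of TMM (0.275%). The rows these added were *top2a* and *nusap1* in both, and *ccnb3* and *ube2c* without the filter. At an unadjusted p under 0.05, 14 of 24 G2 and M phase rows were lower in *prdm1a-/-* cells, against 6.05% of all genes, and 0 were higher. At the same threshold 5 of 24 S phase rows were higher, against 6.4% of all genes, and 1 was lower. Without the block, so with the replicate difference left in the error, 0 of the 48 rows and 0 of the 20007 genes were called by edgeR, and 376 genes (1.88%) had an unadjusted p under 0.05.

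Each replicate number gave the same picture by itself. In replicate 1, 21 S phase rows were higher and 3 lower in *prdm1a-/-* than in WT (median log2 ratio 0.15), while 1 G2 and M phase row was higher and 23 were lower (median -0.42). In replicate 2, 17 S phase rows were higher and 7 lower (median 0.16), while 4 G2 and M phase rows were higher and 20 lower (median -0.30). Counted over both pairs, 16 of 24 S phase rows were higher in both, against 29.7% of all genes, and 2 were lower in both. Of the G2 and M phase rows, 19 of 24 were lower in both pairs, against 29.7% of all genes, and 0 were higher in both. Rows of one phase come from the same 4 libraries and can vary together, so they are not independent observations. Levels that separated the 2 genotypes outright were no more frequent than among all genes. Of 24 S phase rows, 3 lay higher in both *prdm1a-/-* libraries than in either WT library, against 12.7% of all genes. Of 24 G2 and M phase rows, 2 lay lower, against 13.5%.

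**Figure D1:**
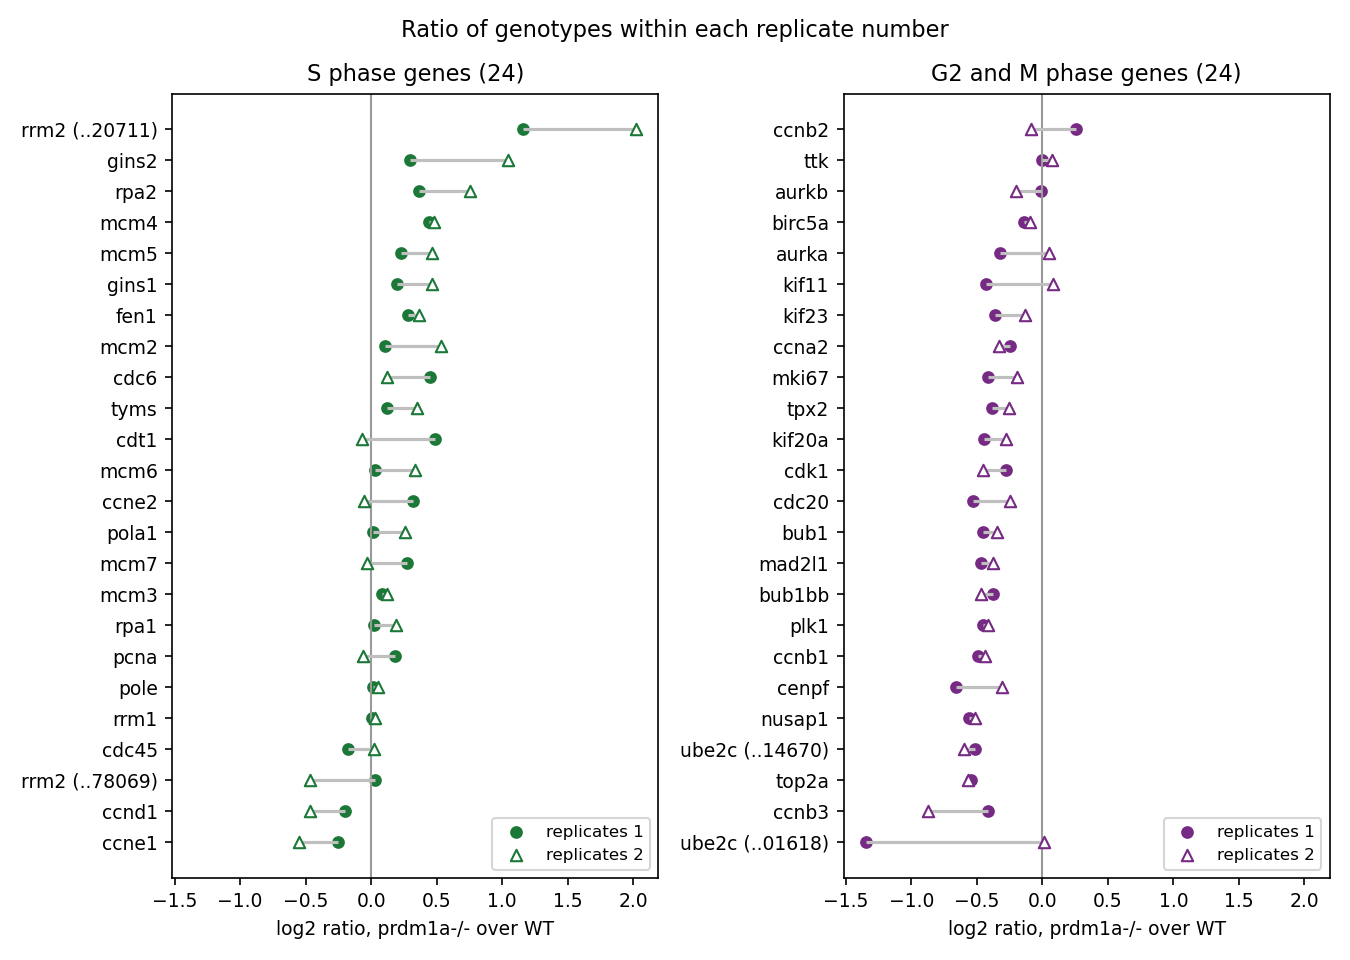
Log2 ratio of *prdm1a-/-* over WT for each of the 48 rows within replicate 1 and within replicate 2. Each phase has its own panel, with rows ordered by fitted log2 fold change and a line at 0 for equal levels. Most S phase genes lie to the right of the line, with medians of 0.15 and 0.16 in the 2 pairs, and most G2 and M phase genes to the left, with medians of -0.42 and -0.30.

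Among the S phase genes, the 6 subunits of the Mcm2-7 helicase all had a higher fitted level in *prdm1a-/-* cells, with log2 fold changes of 0.11 (*mcm3*) to 0.46 (*mcm4*), and 5 of the 6 were higher in both pairs. *mcm4* had 256 and 300 CPM in *prdm1a-/-* replicates 1 and 2, against 188 and 215 CPM in WT replicates 1 and 2. Both *prdm1a-/-* libraries lay above both WT libraries, and the log2 fold change was 0.46 with an SE of 0.132 (adjusted p = 0.168 by edgeR). *mcm5* had 209 and 119 CPM in *prdm1a-/-* pools, against 178 and 86.4 CPM in WT pools. It was higher in *prdm1a-/-* within each number, but the genotypes overlapped because both replicates 2 were low, and the log2 fold change of 0.35 (SE 0.136) did not pass the test (adjusted p = 0.335 by edgeR). *mcm6* had 201 and 116 CPM in *prdm1a-/-* pools, against 197 and 92.0 CPM in WT pools. Its first pair was nearly level, and its log2 fold change was 0.18 (SE 0.139). The others had log2 fold changes of 0.32 (*mcm2*), 0.12 (*mcm7*) and 0.11 (*mcm3*), and *mcm7* was the one subunit whose second pair ran the other way, with 315 CPM in *prdm1a-/-* and 323 CPM in WT.

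Of the licensing factors that load this ring, *cdc6* had 43.6 and 24.4 CPM in *prdm1a-/-* replicates 1 and 2, against 31.9 and 22.5 CPM in WT replicates 1 and 2 (log2 fold change 0.28, SE 0.17). *cdt1* had a log2 fold change of 0.21, and its 2 pairs disagreed in sign (log2 ratios 0.49 and -0.07). Both genes among the members that encode subunits of the GINS complex, which turns the loaded ring into the active helicase, had few counts. *gins2* had 9.46 and 5.78 CPM in *prdm1a-/-* pools, against 7.68 and 2.80 CPM in WT pools, and WT replicate 2 was the lowest library (log2 fold change 0.65, SE 0.316, adjusted p = 0.44 by edgeR). *gins1* had 14.9 and 7.86 CPM in *prdm1a-/-* pools, against 13.0 and 5.69 CPM in WT pools (log2 fold change 0.33, SE 0.242). Both were higher in *prdm1a-/-* within each number while their ranges overlapped. *cdc45*, the remaining helicase cofactor, had a log2 fold change of -0.08 with pairs of opposite sign.

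At the fork itself, *rpa2*, the middle subunit of the single-strand DNA binding complex RPA, had a larger fold change than the large subunit *rpa1*. *rpa2* had 85.7 and 63.8 CPM in *prdm1a-/-* replicates 1 and 2, against 66.7 and 37.8 CPM in WT replicates 1 and 2. *prdm1a-/-* replicate 2 lay just below WT replicate 1, so the genotypes overlapped, and the log2 fold change was 0.56 with an SE of 0.152 (adjusted p = 0.142 by edgeR). *rpa1* had a log2 fold change of 0.10, and the difference between the 2 subunits was not tested. In the RefSeq gene table *rpa2*, *ccne2* and *ttk* are on the same chromosome as *prdm1a*, and for them an effect of sequence linked to the mutant allele and one of the genotype cannot be told apart. *rrm2* was not matched by symbol in that table, where it is a synonym of both *rrm2l* and *rrm2b*. Which of these each *rrm2* row stands for, and whether it lies on the chromosome of *prdm1a*, was not determined. *fen1*, the nuclease that trims the flaps of Okazaki fragments, had 94.0 and 74.3 CPM in *prdm1a-/-* pools, against 77.5 and 57.7 CPM in WT pools (log2 fold change 0.32, SE 0.136, adjusted p = 0.367 by edgeR). *pola1*, the catalytic subunit of the polymerase that starts each fragment, had 93.8 and 100 CPM in *prdm1a-/-* pools, against 93.1 and 84.1 CPM in WT pools. Its libraries did not overlap, yet the log2 fold change was 0.13 (SE 0.137). *pole*, the leading-strand polymerase (0.03), and *pcna*, the sliding clamp (0.06), were close to level on the log2 scale. *pcna* had the most counts of the S phase genes and is given for that reason, after its values were seen, with 537 and 370 CPM in *prdm1a-/-* pools and 474 and 385 CPM in WT pools.

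The one call was in nucleotide supply. Ribonucleotide reductase, which makes deoxyribonucleotides, joins a large subunit (*rrm1*) with a small subunit (*rrm2*). The *rrm2* row ENSDARG00000020711 had 26.2 and 26.6 CPM in *prdm1a-/-* replicates 1 and 2, against 11.7 and 6.54 CPM in WT replicates 1 and 2. Both *prdm1a-/-* libraries lay above both WT libraries, with log2 ratios of 1.16 and 2.03 within replicates 1 and 2. The log2 fold change was 1.58 with an SE of 0.243 (adjusted p = 0.0124 by edgeR's quasi-likelihood test). Its adjusted p with the block lay between 4.72e-05 (no filter on low counts) and 0.104 (library totals without TMM). Without the block it was 0.9999, with a log2 fold change of 1.53. The other *rrm2* row, ENSDARG00000078069, had more counts and a fold change of the other sign, with 184 and 115 CPM in *prdm1a-/-* pools, against 181 and 159 CPM in WT pools (log2 fold change -0.22, SE 0.153, adjusted p = 0.622). The 2 rows may share reads if their sequences are alike, so the value of each is uncertain. *rrm1* was level in both pairs (log2 fold change 0.02), and *tyms*, thymidylate synthase, had a log2 fold change of 0.23.

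Of the 3 cyclins that lead into S phase, 2 had negative and 1 a positive fitted log2 fold change, and 0 passed the test. *ccnd1*, cyclin D1, had 348 and 202 CPM in *prdm1a-/-* replicates 1 and 2, against 400 and 279 CPM in WT replicates 1 and 2. It was lower in *prdm1a-/-* within each number, and the log2 fold change of -0.33 (SE 0.139) did not pass the test (adjusted p = 0.363 by edgeR). *ccne1*, a cyclin E, had 10.6 and 3.78 CPM in *prdm1a-/-* pools, against 12.6 and 5.52 CPM in WT pools (log2 fold change -0.39, SE 0.268). These were the 2 S phase genes that were lower in both pairs, and for both the genotypes overlapped. *ccne2* had a log2 fold change of 0.13 with pairs of opposite sign. Without *ccnd1*, *ccne1* and *ccne2*, the median log2 fold change of the S phase rows was 0.21.

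**Figure D2:**
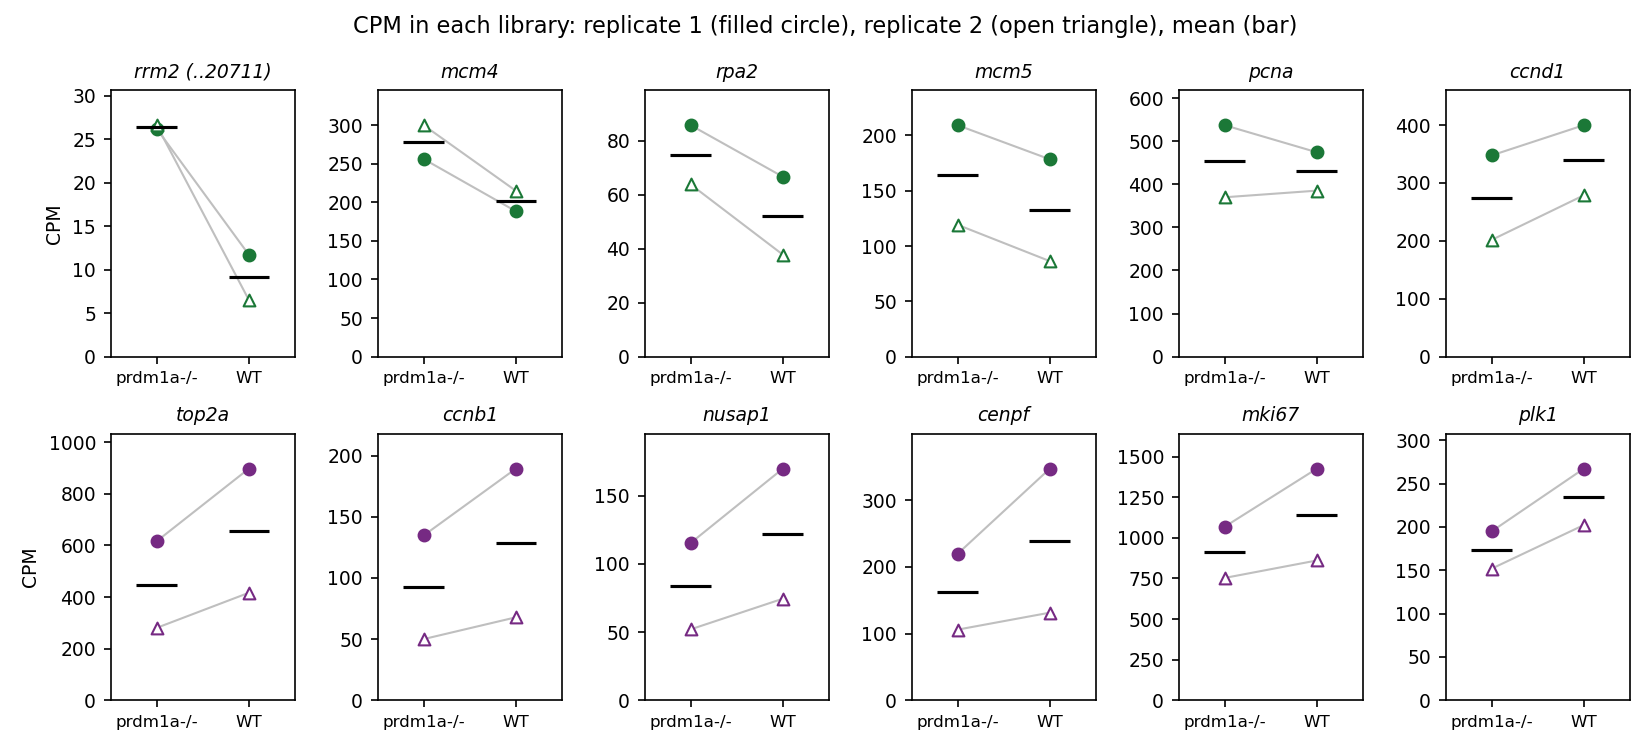
CPM on a linear axis of selected members of both phases, in *prdm1a-/-* and WT libraries, with a separate marker for each replicate number. The members shown were picked by hand, and *pcna* and *mki67* among them were chosen after their values were seen. The *rrm2* row ENSDARG00000020711 has its *prdm1a-/-* points at 26.2 and 26.6 CPM and its WT points at 11.7 and 6.54 CPM, while for *ccnb1*, at 135 and 49.9 CPM in *prdm1a-/-* and 189 and 67.7 CPM in WT, the replicate numbers lie farther apart than the genotypes.

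In G2 and M phase, Cdk1 and 3 of its 4 cyclins were lower in *prdm1a-/-* cells within each replicate number. *cdk1*, the kinase that drives entry into mitosis, had 123 and 48.5 CPM in *prdm1a-/-* replicates 1 and 2, against 149 and 66.6 CPM in WT replicates 1 and 2 (log2 fold change -0.37, SE 0.135, adjusted p = 0.301 by edgeR). *ccnb1*, cyclin B1, had 135 and 49.9 CPM in *prdm1a-/-* pools, against 189 and 67.7 CPM in WT pools. Replicates 1 were the high libraries in both genotypes, so the genotypes overlapped, and the log2 fold change within replicate number was -0.47 (SE 0.131, adjusted p = 0.157 by edgeR). *ccnb3*, another B-type cyclin, had 44.6 and 16.7 CPM in *prdm1a-/-* pools, against 59.4 and 30.6 CPM in WT pools (log2 fold change -0.64, SE 0.171, adjusted p = 0.135). *ccna2*, cyclin A2, which acts in S phase as well, had 127 and 49.5 CPM in *prdm1a-/-* pools, against 151 and 62.2 CPM in WT pools (log2 fold change -0.29, SE 0.132, adjusted p = 0.415). *ccnb2* stood outside this pattern, with a log2 fold change of 0.08 and pairs of opposite sign.

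The lowest p-values among the G2 and M phase genes belonged to *top2a* and *nusap1*. *top2a*, the topoisomerase that untangles sister chromatids, had 616 and 280 CPM in *prdm1a-/-* replicates 1 and 2, against 897 and 416 CPM in WT replicates 1 and 2. Each *prdm1a-/-* library lay below its WT partner, while *prdm1a-/-* replicate 1 lay above WT replicate 2. The log2 fold change was -0.56 with an SE of 0.135 (adjusted p = 0.0996 by edgeR), and its adjusted p was between 0.0221 (limma-voom) and 0.184 in the fits with the block. *nusap1*, which bundles spindle microtubules, had 115 and 52.0 CPM in *prdm1a-/-* pools, against 170 and 74.4 CPM in WT pools. The pattern over libraries was that of *top2a*, with a log2 fold change of -0.54 and an SE of 0.131 (adjusted p = 0.0997 by edgeR, 0.0442 to 0.246 in the fits with the block). *cenpf*, a kinetochore protein, had 220 and 106 CPM in *prdm1a-/-* pools, against 347 and 131 CPM in WT pools (log2 fold change -0.49, SE 0.143, adjusted p = 0.18). *mki67*, the coat protein of mitotic chromosomes used as a proliferation marker, had the most counts of all members and is given for that reason, after its values were seen. It had 1069 and 753 CPM in *prdm1a-/-* pools, against 1426 and 861 CPM in WT pools (log2 fold change -0.30, SE 0.143, adjusted p = 0.422).

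Of the motors and spindle factors beside *nusap1*, *kif20a* (-0.37), *tpx2* (-0.32) and *kif23* (-0.25) had negative log2 fold changes and were lower in *prdm1a-/-* in both pairs. *kif11*, the motor that pushes spindle poles apart, had a log2 fold change of -0.18 with pairs of opposite sign (-0.43 and 0.08). Among the mitotic kinases, *plk1* was the gene whose genotypes did not overlap. It had 195 and 152 CPM in *prdm1a-/-* replicates 1 and 2, against 267 and 202 CPM in WT replicates 1 and 2 (log2 fold change -0.43, SE 0.132, adjusted p = 0.196 by edgeR). The aurora kinases were closer to level, with log2 fold changes of -0.14 (*aurka*) and -0.11 (*aurkb*). *birc5a*, survivin, which targets aurora B to centromeres, had 31.7 and 23.3 CPM in *prdm1a-/-* pools, against 35.1 and 24.9 CPM in WT pools (log2 fold change -0.12, SE 0.164). Its libraries overlapped, and the difference was smaller than its SE.

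Of the 4 spindle checkpoint genes, 3 were lower in *prdm1a-/-* in both pairs. *bub1bb*, the fish BubR1, had 52.9 and 20.4 CPM in *prdm1a-/-* replicates 1 and 2, against 68.8 and 28.3 CPM in WT replicates 1 and 2 (log2 fold change -0.42, SE 0.15, adjusted p = 0.278 by edgeR). *bub1* had a log2 fold change of -0.40 (SE 0.131). *mad2l1*, which holds the anaphase-promoting complex in check, was the other G2 and M phase gene without overlap and is given for that reason, after its values were seen, with 50.9 and 40.1 CPM in *prdm1a-/-* pools, against 70.4 and 52.1 CPM in WT pools (log2 fold change -0.42, SE 0.142, adjusted p = 0.247). *ttk*, the kinase at the head of the checkpoint, was level (log2 fold change 0.04). Of the anaphase-promoting complex and its partners, *cdc20*, an activator of that complex, had a log2 fold change of -0.39 (SE 0.14). *ube2c*, its ubiquitin-conjugating enzyme, under ENSDARG00000114670, had 67.7 and 36.3 CPM in *prdm1a-/-* pools, against 96.7 and 54.9 CPM in WT pools (log2 fold change -0.55, SE 0.139, adjusted p = 0.108). Both pairs were lower in *prdm1a-/-*. The second *ube2c* row, ENSDARG00000101618, which the Ensembl table names *DNTTIP1*, had 4.95 and 13.4 CPM in *prdm1a-/-* pools, against 12.6 and 13.3 CPM in WT pools. Its log2 fold change of -0.64 (SE 0.322) rested on *prdm1a-/-* replicate 1, the one low library.

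Summed over the list, the S phase genes held 3588 and 2662 CPM in *prdm1a-/-* replicates 1 and 2, against 3290 and 2488 CPM in WT replicates 1 and 2. The *prdm1a-/-* sum was 1.09 and 1.07 times its WT partner. The G2 and M phase genes held 4175 and 2442 CPM in *prdm1a-/-* pools, against 5629 and 2963 CPM in WT pools, or 0.742 and 0.824 times the WT partner. The ratio of G2 and M phase to S phase sums was 1.16 and 0.918 in *prdm1a-/-* replicates 1 and 2, against 1.71 and 1.19 in WT replicates 1 and 2. Both *prdm1a-/-* ratios lay below both WT ratios, although *prdm1a-/-* replicate 1 was close to WT replicate 2. Because *mki67* and *top2a* had the highest levels of the G2 and M phase genes, the ratio was also taken without them. It was then 0.694 and 0.529 in *prdm1a-/-* pools, against 1.004 and 0.678 in WT pools, with *prdm1a-/-* replicate 1 now above WT replicate 2. When every gene counted equally, the mean log2 CPM of the G2 and M phase genes minus that of the S phase genes was 0.20 and -0.04 in *prdm1a-/-* pools, against 0.78 and 0.50 in WT pools. The differences between the genotypes were -0.59 and -0.54 in the 2 pairs. With 2 libraries per genotype these values are a description, and no p is given for them.

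**Figure D3:**
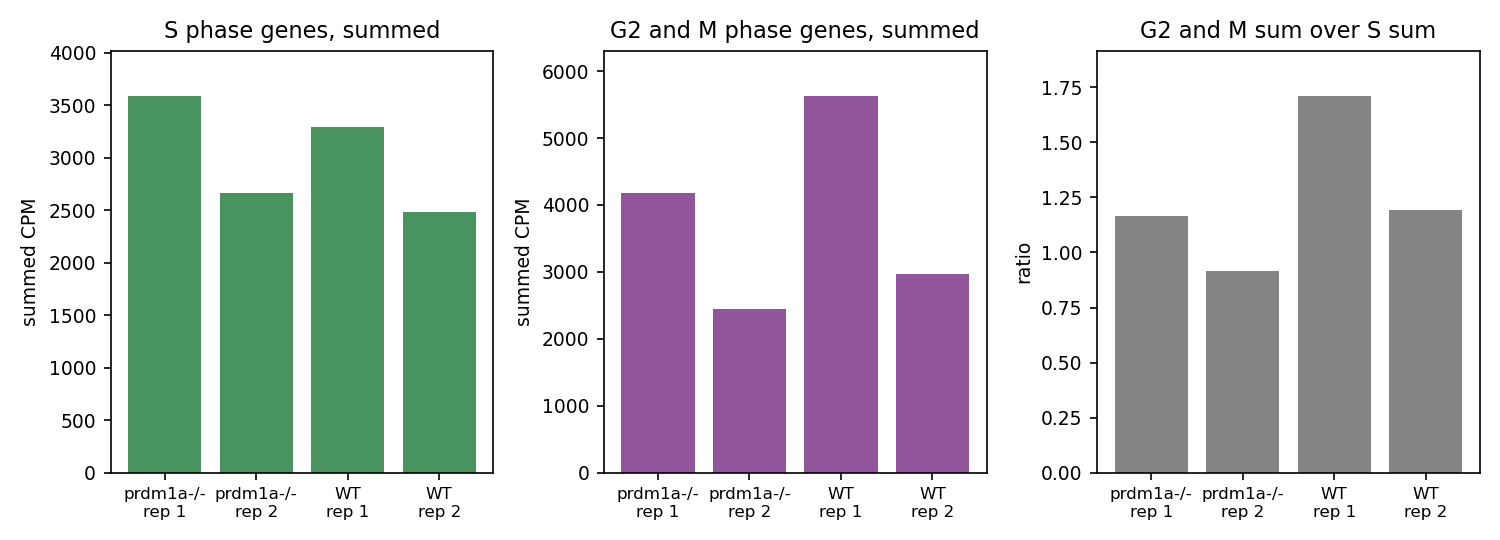
Summed CPM of the S phase genes and of the G2 and M phase genes, and the ratio of the second sum to the first, in each library, *prdm1a-/-* left of WT. The ratio is 1.16 and 0.918 in *prdm1a-/-* replicates 1 and 2 and 1.71 and 1.19 in WT replicates 1 and 2.

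Other genes of the same processes, on 2 lists that share no gene with the 46, lay mostly on the same sides. They were measured in the same 4 libraries, and the lists were chosen with earlier results of these data known. The lists are therefore not independent support. Of 32 other replication genes (origin recognition complex, primase, polymerase subunits, clamp loader, chromatin assembly), 24 were higher in *prdm1a-/-*, against 50.7% of all genes tested. The remaining 8 were lower, the median log2 fold change was 0.16, and 0 were called, against 1.01%. In both pairs 17 of 32 were higher, against 29.7%. Both *prdm1a-/-* libraries lay above either WT library for 5 of 32, against 12.7%. *gins4*, the GINS subunit with the smallest p, chosen after its values were seen, had 17.7 and 17.1 CPM in *prdm1a-/-* replicates 1 and 2, against 11.8 and 11.8 CPM in WT replicates 1 and 2 (log2 fold change 0.56, SE 0.207, adjusted p = 0.306 by edgeR). Of 30 other mitosis genes listed, 28 were measured, and all 28 had a lower fitted level in *prdm1a-/-*, here and in the other fits with the block. Their median was -0.30, and 23 of 28 were lower in both pairs, against 29.7% of all genes tested. Both *prdm1a-/-* libraries lay below either WT library for 8 of 28, against 13.5%, and 1 of 28 was called lower, against 0.62%. The called gene was *kif2c*, a kinesin that takes microtubules apart at kinetochores, with 81.1 and 50.4 CPM in *prdm1a-/-* pools, against 118 and 98.5 CPM in WT pools. The WT libraries were the 2 highest, and it fell by 0.76 on the log2 scale (SE 0.149, adjusted p = 0.0492 by edgeR's quasi-likelihood test). Its adjusted p was between 0.00384 and 0.187 in the fits with the block and 0.9999 without it.

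Among cell cycle regulators and stress response genes on further lists, 0 were called between the genotypes, against 1.01% of all genes tested. At that share, lists of this size would hold few calls or none. Of all genes tested, 50.7% were higher and 49.3% lower. Of 19 measured genes of the E2F, RB and DREAM families, which switch S phase and mitotic genes on and off, 4 were higher and 15 lower in *prdm1a-/-*, with a median log2 fold change of -0.08 and 0 called. Their split was 9 higher and 10 lower in replicate 1 (median -0.01) and 4 higher and 15 lower in replicate 2 (median -0.21). Of 18 tested Cdk inhibitors and stress response genes, 6 were higher and 12 lower, with a median of -0.21 and 0 called. Their split was 8 higher and 10 lower in replicate 1 (median -0.03) and 5 higher and 13 lower in replicate 2 (median -0.36). Values of 2 of the inhibitors are given, chosen after they were seen. *cdkn1a*, the Cdk inhibitor p21, had 9.55 and 37.8 CPM in *prdm1a-/-* replicates 1 and 2, against 5.76 and 31.9 CPM in WT replicates 1 and 2 (log2 fold change 0.46, SE 0.201, adjusted p = 0.382 by edgeR). *cdkn1bb*, a p27 gene, had 48.7 and 132 CPM in *prdm1a-/-* pools, against 62.3 and 170 CPM in WT pools (log2 fold change -0.36, SE 0.131, adjusted p = 0.293). For both, replicates 2 were the high libraries in either genotype. Of 9 measured G1 cyclins, Cdks, *cdc25a* and Myc genes, 7 were higher and 2 lower (median 0.03, 0 called).

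**Figure D4:**
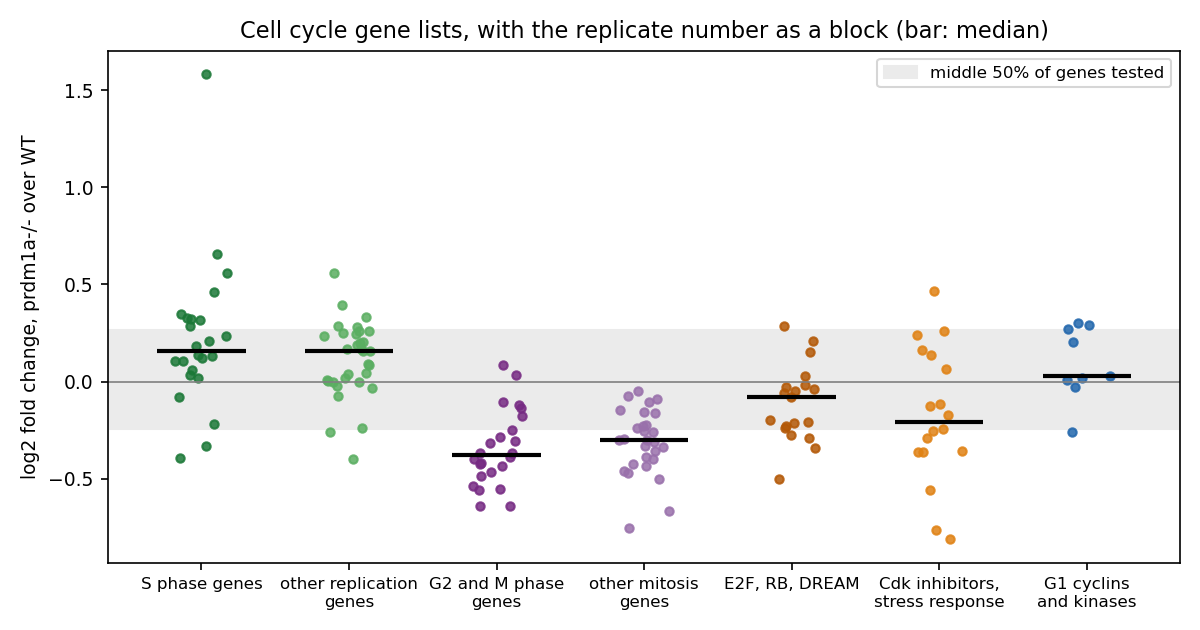
Fitted log2 fold change, *prdm1a-/-* over WT, of each gene in the S phase list, the G2 and M phase list and 5 related lists, one point per gene with the median of each list. The S phase list (median 0.16) and the other replication genes (0.16) lie mostly above 0, and the G2 and M phase list (-0.38) and the other mitosis genes (-0.30) mostly below it.

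The log2 differences between replicate numbers were larger in median than those between the genotypes. In the same fit, 31 of the 48 rows were called lower in replicates 2 than in replicates 1 at an adjusted p under 0.05, against 10.6% of all genes. In the other direction 0 were called higher, against 14.1%. Of the 31 called lower, 12 were S phase rows and 19 were G2 and M phase rows. The median log2 difference, replicate 2 over replicate 1, was -0.54 for the S phase rows (-0.55 among *prdm1a-/-* pools and -0.51 among WT pools). For the G2 and M phase rows it was -0.89 (-0.81 among *prdm1a-/-* pools and -0.92 among WT pools), against 0.00 for all genes tested. The largest log2 differences were those of *ccnb1* (-1.46, SE 0.133), *ccne1* (-1.34, SE 0.271), *bub1bb* (-1.33, SE 0.152), *ccna2* (-1.32, SE 0.134) and *cdk1* (-1.25, SE 0.136). *mcm4*, *pola1*, *mcm7* and *cdt1* were the S phase genes nearest to level or above it, with log2 differences of 0.21, -0.02, -0.07 and 0.14. The share of counts on 13 mitochondrial genes also differed with the replicate number. It was 1.495% (1.489% to 1.4999%) and 2.264% (2.259% to 2.270%) in *prdm1a-/-* replicates 1 and 2, and 1.788% (1.783% to 1.794%) and 2.371% (2.365% to 2.377%) in WT replicates 1 and 2, with 95% Wilson intervals that cover counting error only. It was higher in replicates 2 of both genotypes, and its part in these differences was not tested. In this contrast both phases ran the same way, whereas between the genotypes they ran opposite ways.

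**Figure D5:**
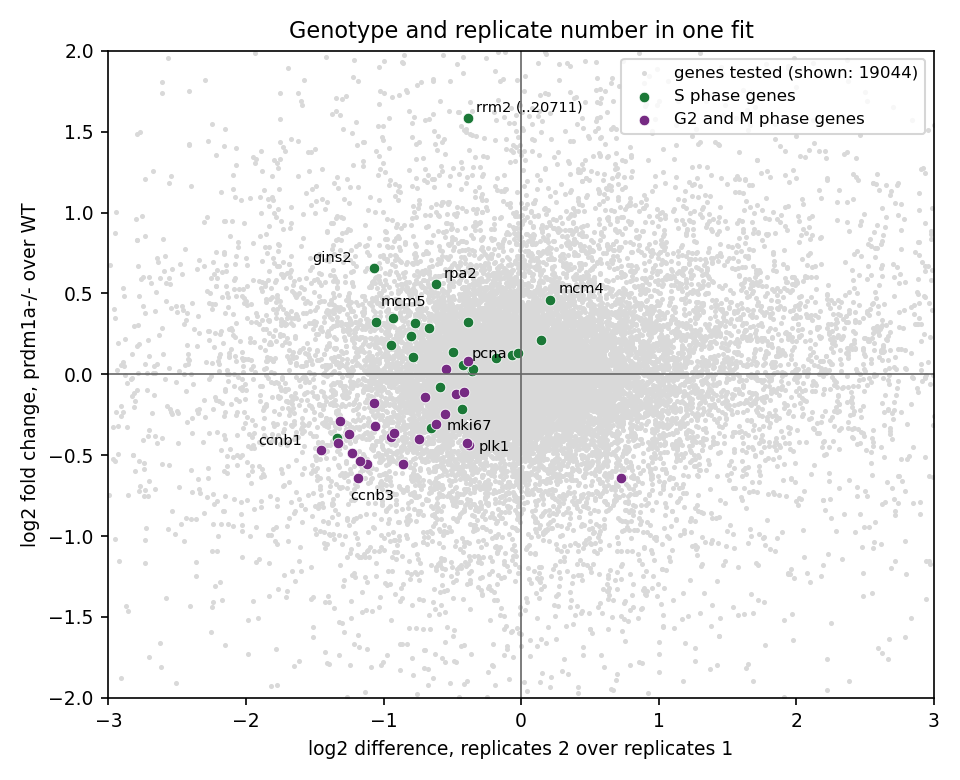
Fitted log2 fold change of genotype (vertical, *prdm1a-/-* over WT) against the log2 difference of replicate number (horizontal, replicates 2 over replicates 1) for the genes tested that lie within the axes, with the S phase and the G2 and M phase genes in colour. Nearly all members lie left of 0, with medians of -0.54 and -0.89, while S phase genes lie mostly above the horizontal line (median 0.16) and G2 and M phase genes below it (median -0.38).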

How the data were processed

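The authors aligned read pairs to danRer11 with STAR 2.7.10b and counted reads per gene with featureCounts. The deposited counts, whole numbers without normalization, are the values used here. The strand setting, other options and gene models behind the counts were not given in the sources used here, so overlapping and antisense genes may share reads. The authors' base means, log2 values, fold changes, Wald statistics and p-values were not used. The 6 CUT&RUN samples (24 hpf) were not analysed here.

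The 4 libraries were compared with edgeR 4.0.16 (R 4.3.3): quasi-likelihood test, TMM, filterByExpr (minimum count 10, minimum total 15), genotype and replicate number as terms (1 residual degree of freedom), two-sided, Benjamini-Hochberg adjustment over 20007 genes. The replicate block was the main design because members were to be compared within replicate number. Deviations from the genotype mean correlated between same-numbered libraries (r = 0.70, taken across genes and so not over replicates), but the labels do not say what a number marks. The replicate difference came from the same fit. Each SE given beside an edgeR value is the absolute log2 value over the square root of the test's F statistic. It restates the test and is not a separate estimate of spread. Alternatives were no block, RLE size factors, library totals without TMM, no filter, limma-voom (limma 3.58.1), at least 10 counts in every library, DESeq2 (1.42.0), and leaving out each library or replicate number. The code was tested on simulated data.

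The members and lists were chosen with earlier results of these data known, and 1 gene of a pathway list is not reported here. Values per library are given for members called, for the 6 of each phase with the smallest p, for the 4 of each phase with the largest replicate difference, for 1 of any role group left without, and, outside the list, for called genes of the pathway lists. Other genes with values per library (*pcna*, *mki67*, *mad2l1*, the second *rrm2* and *ube2c* rows, *gins4*, *cdkn1a*, *cdkn1bb*, *bbc3* and *sesn2*) were chosen after their values were seen. No genome of the build was used, and a planned search of promoters for E2F, CHR and CCAAT motifs was not run.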

Additional observations from a re-analysis of the deposited data

How the results depend on the processing

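With the replicate block the directions of both lists held in every fit, but the calls depended on the processing. Genes called (203) became 0 without the replicate block, 128 with RLE size factors, 55 with library totals, 636 without a filter and 434 with limma-voom. Members called (1) became 0 without the block, 0 with library totals, 5 without a filter and 3 with limma-voom. The S phase median (0.16) was 0.15 without the replicate block, 0.16 with RLE size factors, no filter, DESeq2 or at least 10 counts in every library, 0.12 with library totals, and 0.21 without the 4 listed D, E and A cyclins. The replicate difference had medians of -0.51 for S phase genes in WT libraries alone and -0.81 for G2 and M phase genes in *prdm1a-/-* libraries alone. With 1 library left out and no block, the replicate difference enters the contrast by construction: 0 genes and 0 members were called. The S phase median then ran between -0.16 (without *prdm1a-/-* replicate 1) and 0.39, and was also below 0 without WT replicate 2 (-0.094). The G2 and M phase median ran between -0.84 and 0.19 (without WT replicate 1). Of the named genes the ranges that crossed 0 were -0.25 to 1.0002 (*gins1*), -0.014 to 1.44 (*gins2*), -0.75 to 0.034 (*ccnd1*), -1.26 to 0.38 (*ccne1*), -0.15 to 0.93 (*mcm5*), -0.31 to 0.79 (*mcm6*), -0.16 to 0.68 (*cdc6*), -1.10 to 0.51 (*ccna2*), -1.37 to 0.45 (*ccnb1*), -1.43 to 0.0052 (*ccnb3*), -1.15 to 0.37 (*cdk1*), -0.37 to 0.15 (*birc5a*), -1.18 to 0.31 (*cenpf*), -1.23 to 0.11 (*top2a*), -1.23 to 0.17 (*nusap1*) and -1.25 to 0.38 (*bub1bb*). Leaving out a replicate number leaves 1 pair and no test, and gave the ratios of that pair. Where 1 library is dropped under the block, its partner no longer informs the contrast either.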

Other observations

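The Cdk inhibitors and stress response genes differed between the replicate numbers mostly in the direction opposite to the replication and mitosis genes. Of 18 tested Cdk inhibitors and stress response genes, 15 were called higher in replicates 2 than in replicates 1 by edgeR's quasi-likelihood test, against 14.1% of all genes tested. In the other direction 0 of the 18 were called lower, against 10.6%. The median log2 difference of the 18 genes was 1.55, with 1.52 among *prdm1a-/-* pools and 1.43 among WT pools. The examples that follow were chosen after their values were seen. *bbc3*, which encodes the cell death protein Puma, had 1.37 and 85.9 CPM in *prdm1a-/-* replicates 1 and 2 and 1.40 and 94.9 CPM in WT replicates 1 and 2 (log2 difference 6.02, SE 0.198). *sesn2*, a sestrin, had 7.79 and 40.3 CPM in *prdm1a-/-* replicates 1 and 2 and 6.89 and 36.2 CPM in WT replicates 1 and 2 (log2 difference 2.38, SE 0.188). *cdkn1a* had a log2 difference of 2.22 (SE 0.207) and *btg2* of 1.70 (SE 0.138). In both genotypes the replicates 2 were thus the libraries with higher levels of these genes and lower levels of replication and mitosis genes. Between the genotypes 0 of the 18 were called, against 1.01% of all genes tested. At an unadjusted p under 0.05 by edgeR, 1 was higher and 2 were lower, against 6.4% and 6.05% of all genes. The mitochondrial share of counts was higher in the replicates 2 as well, and its part in these differences was not tested. What a replicate number marks is not stated in the labels, and no relation between the lists was tested.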
